A study of Mus musculus with 22 samples.

Results

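C3+14 is a derivative of the mouse transcription factor DUX which, as its name reads, keeps 1 repeat of the C-terminal part, C3, together with the tail called 14. The labels do not spell these names out. The comparison described here sets the C3+14 libraries against libraries of cells that made mCherry alone. It was chosen by group name from the deposited table of normalised values, and it covers 4 of the 22 samples of the series, 2 for C3+14 and 2 for mCherry. In the 2 groups the host was a Dux-/- mouse embryonic stem cell line kept in 2iLIF, a medium with kinase inhibitors and leukaemia inhibitory factor that holds such cells in a naive state. The C3+14 cells carried mCherry joined to C3+14, and the control cells carried mCherry, a red fluorescent protein, with no DUX part. All cells received doxycycline at 0.25 ug/mL for 12 hours, so the controls share the knockout, the drug and the tag. Poly(A) RNA was then sequenced with strand information.

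DUX has a pair of homeodomains that bind DNA and a C-terminal part that recruits coactivators. In the mouse it is made briefly when the embryo begins to transcribe its own genome, and it switches on genes of the 2-cell stage such as Zscan4, Tcstv and Usp17-like genes. When it is made in embryonic stem cells, a 2-cell-like programme appears and parts of the pluripotency programme decline. The question that this comparison addresses is which of these responses a derivative with a single repeat gives.

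The C3+14 libraries held 21059953 and 22052011 reads assigned to genes, and the mCherry libraries 31203170 and 23949774. Values are normalised reads, that is reads divided by 1 size factor per library. A single read was worth 1.68 and 1.62 normalised reads in the C3+14 libraries and 0.660 and 0.858 in the mCherry libraries. Replicates correlated with Pearson's r of 0.98 and 0.993 across genes on the log2 scale, which describes the libraries only. Duxf3 and Gm4981, the copies of the targeted locus in the annotation, had 0 reads in all 4 libraries and no mCherry gene is listed, so the labels could not be checked on the transgene. All 10 stem cell markers, Pou5f1 and Nanog among them, were well above 0 in both groups, with summed levels of 82043 and 73264 normalised reads in C3+14 and 96769 and 94134 in mCherry. Of markers of other cell types, 8 of 10 for fibroblasts, 7 of 8 for neuroectoderm and 3 of 8 for mesoderm had enough reads to be tested. Their summed levels in C3+14 were 369 and 426 for fibroblasts against 172 and 178 in mCherry, 1515 and 1676 for neuroectoderm against 2536 and 2743, and 70.4 and 90.7 for mesoderm against 139 and 140. The fibroblast gene Twist2 was at 0 reads in all 4 libraries. In the test described below, 5 of the 10 stem cell markers were called lower and 0 higher, with a median log2 fold change of -1.06. Of the 7 neuroectoderm markers 4 were called higher and 1 lower, with a median of 2.63. The stem cell and neuroectoderm sums thus do not stand for their members. Of the 8 fibroblast markers 5 were called higher and 1 lower, and of the 3 mesoderm markers 0 either way. Over all genes 29.6% were called higher and 17.7% lower. The labels do not say whether replicates are separate cultures, so p-values measure the spread between these libraries only. Fewer cells of a kind and less RNA per cell cannot be told apart in such bulk samples.

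Of 21584 genes tested with limma, 6391 were called higher in C3+14 (29.6%) and 3814 lower (17.7%). Among the 15638 protein-coding genes tested, 3564 were higher (22.8%) and 3196 lower (20.4%), with a median log2 fold change of 0.003. The count of each list below stands against these shares. Genes were called where the Benjamini-Hochberg adjusted p was below 0.05 and the log2 fold change reached 1 in either direction on the log2(value + 1) scale, with the spread estimated over the 14 libraries of the table. The calls were lopsided in size. A change of 4 or more on the log2 scale was reached by 1964 genes upward and by 231 downward. Of the genes called higher, 1482 had 0 reads in both mCherry libraries, and of those called lower 113 had 0 reads in both C3+14 libraries. Such genes passed the filter, a value of 10 in at least 2 of the 14 libraries, only through groups where they are high. Genes called higher held 57.1% and 57.9% of all C3+14 reads and 24.2% of the reads of each mCherry library. Genes called lower held 2.49% and 2.44% of the C3+14 reads and 13.1% and 13.3% of the mCherry reads. These counts and read shares belong to genes picked by their calls, so they describe the calls and test nothing. The share of calls that were higher was 62.6%, and it was 37.4% when libraries were scaled to equal total reads and 42.4% after quantile normalization. These scalings lowered the median log2 fold change of all genes, which was 0.23, by 0.74 and 0.48, so directions below are relative to the deposited scaling, and genes that another scaling turns are named. A further alternative, a correction for base composition, centred the fold changes within 20 bins of transcript GC content and was added after the data were seen. At the fold limit, Med7 (1.0005) was just inside and Psmg4 (0.9996) just outside on the higher side.

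**Figure D1:**
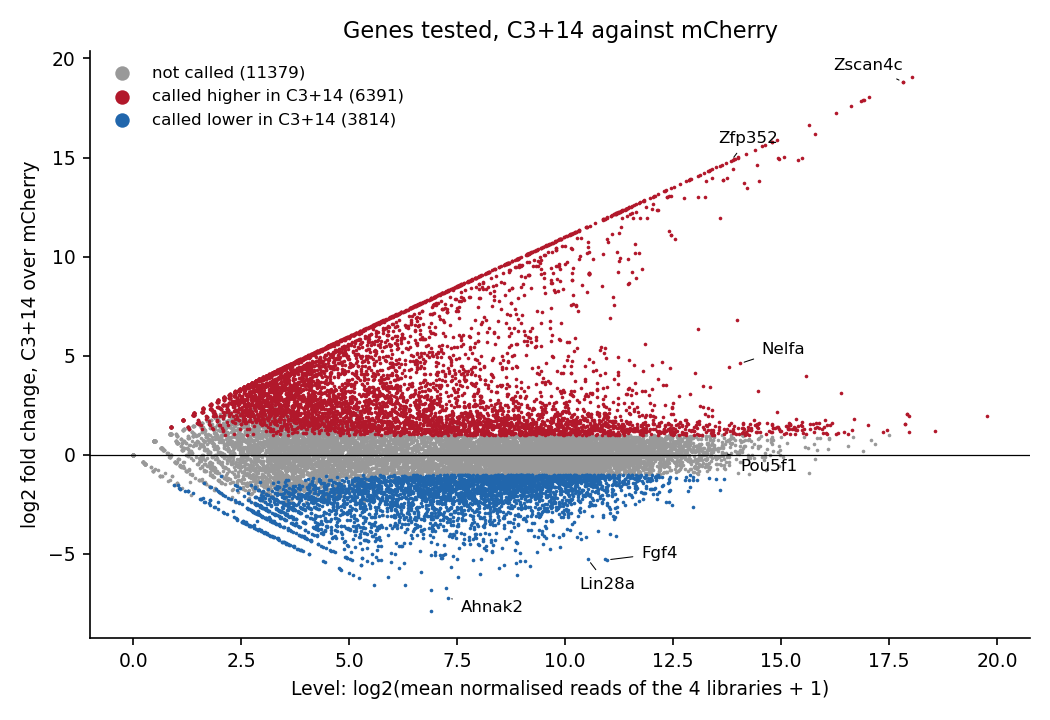
Each point is 1 of the 21584 genes tested, with its level over the 4 libraries on the x axis (log2 of normalised reads plus 1) and its log2 fold change of C3+14 over mCherry on the y axis. The 6391 genes called higher (red) reach 19.04, the 3814 called lower (blue) reach -7.89, and the straight upper edge is formed by genes with 0 reads in both mCherry libraries.

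Promoter sequences of some genes that rose are shown first, because several of them share a stretch of sequence. Promoters were the 250 bases before and 50 after the RefSeq start (GRCm38.p6). They were searched for the letters GATTNAATC, with N for any base, an inverted repeat that reads alike on both strands. Of 27025 genes with a promoter entry 83 held it (0.307%). Of the genes called higher that could be matched 26 of 2944 did (0.883%), against 1 of 2689 called lower (0.0372%) and 13 of 7334 not called (0.177%). Among genes higher by 4 or more the count was 16 of 754 (2.12%). Of those with under 20% of their sequence shared with other genes it was 5 of 567 (0.882%). The 16 include 6 near-identical array genes of chromosome 10, each counted. The 5 (Gm35974, Gm12724, Gm12790, Esp24 and Gm33248) all hold the 20-base stretch described below. Related promoters were thus counted as separate genes, so these shares describe the calls and test nothing. None of the 30 promoters found for 47 genes of the 2-cell lists below held the letters. The windows printed here were therefore chosen after the values were seen, as genes that rose and hold the letters. Capitals mark the letters searched, and each window is read on the gene's strand with 30 bases to each side.
Gm35974, chr16:3468287-3468355, plus strand: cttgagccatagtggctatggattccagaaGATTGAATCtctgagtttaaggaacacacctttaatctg
Gm4340, chr10:104193866-104193934, plus strand: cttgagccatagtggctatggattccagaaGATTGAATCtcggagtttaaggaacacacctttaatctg
Gm12724, chr4:106236949-106237017, plus strand: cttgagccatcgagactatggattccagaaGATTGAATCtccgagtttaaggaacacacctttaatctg
Gm12790, chr4:101975213-101975281, minus strand: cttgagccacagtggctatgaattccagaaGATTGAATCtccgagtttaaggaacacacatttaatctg
Esp24, chr17:39036496-39036564, plus strand: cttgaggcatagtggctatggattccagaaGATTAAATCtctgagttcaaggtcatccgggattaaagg
AF067061, chr13:120262940-120263008, plus strand: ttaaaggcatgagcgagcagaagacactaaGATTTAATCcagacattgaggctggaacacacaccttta
Gm13057, chr4:143551565-143551633, plus strand: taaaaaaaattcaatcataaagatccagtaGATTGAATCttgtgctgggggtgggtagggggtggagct

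The windows of Gm35974, a lincRNA gene, and of Gm4340, one of several near-identical array genes on chromosome 10, are alike at 68 of 69 bases (98.6%). Those of Gm12724 and Gm12790 match Gm35974 at 65 bases (94.2%), and that of Esp24 at 53 (76.8%). AF067061 and Gm13057 carry the 9 letters in other surroundings, with 40.6% and 33.3% of bases alike. The 69-base window of a gene that fell, Ahnak2, is also given, and it does not hold the letters. It was placed by the RefSeq start and lies within the gene whose reads were counted (chromosome 12, 112772194 to 112802657), not before its start.
Ahnak2, chr12:112795714-112795782, minus strand: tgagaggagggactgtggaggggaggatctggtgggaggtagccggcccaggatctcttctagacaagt

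The last 11 bases before the letters and the letters themselves in Gm35974, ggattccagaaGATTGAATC, were then looked for on both strands of every promoter with at most 2 mismatches. Of 27025 genes, 23 held this 20-base stretch (0.0851%), on 11 chromosomes, and 7 of them were not matched to a gene of the table. Of the 16 tested, 14 were called higher (87.5%) and 0 lower, with a median log2 fold change of 10.12. Of these 14, 6 are array genes of chromosome 10 whose reads cannot be separated. With under 20% of sequence shared, 7 of 9 were called higher, with a median of 6.77. Gm35974 had 998 and 1134 reads in C3+14 and 0 and 1 in mCherry. Gm12724 had 617 and 724 reads against 0 and 0, and Esp24, a gene for an exocrine gland peptide, had 249 and 303 against 0 and 0. At Gm12790 the counts were 901 and 1027 in C3+14 and 25 and 13 in mCherry. Sp110, a nuclear body gene counted among the markers of the 2-cell stage, holds the stretch with 1 mismatch and had 6354 and 6859 reads against 1 and 0. Pemt, a phospholipid methyltransferase gene, also holds it with 1 mismatch and rose by 1.41 only. Arih2 and Sgk1 hold it too and were not called, with log2 fold changes of -0.45 and 0.38. The stretch was taken from a gene already seen to rise, so these counts describe the set and test nothing.

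**Figure D2:**
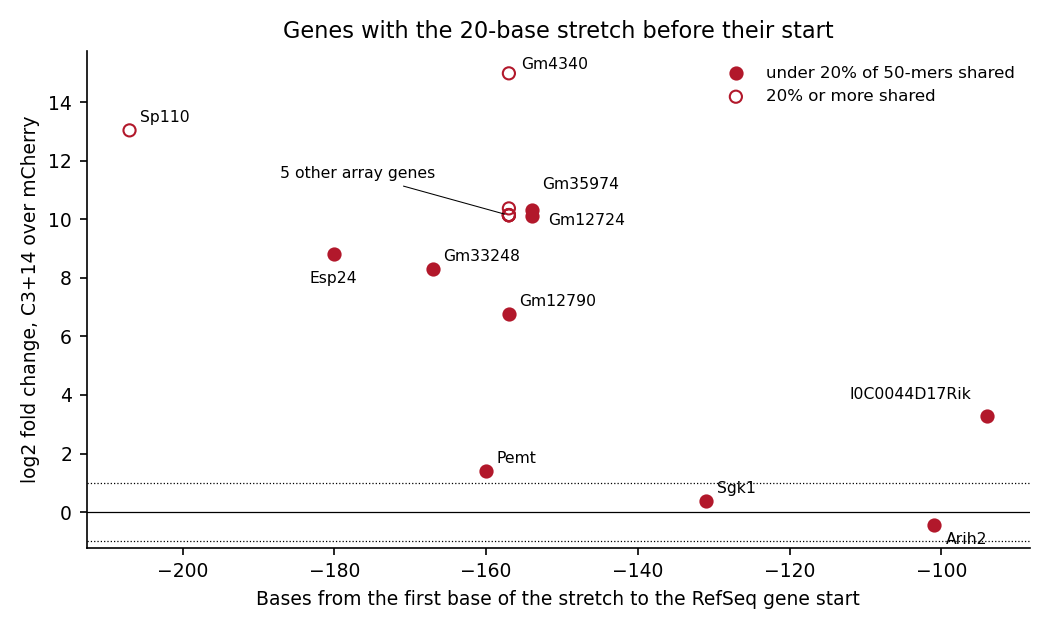
Each point is 1 of the 16 tested genes with the 20-base stretch in its promoter, at the distance from the stretch to the RefSeq start (x axis, bases) and its log2 fold change of C3+14 over mCherry (y axis). The dotted lines mark the fold limit of 1 in either direction, and 14 points lie above the upper line, while Sgk1 and Arih2 lie between the lines.

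The Zscan4 family, zinc finger genes tied to telomere upkeep in early embryos, was called higher at 6 of 6 members. Zscan4c (chromosome 7, 11005745 to 11010547) had 440221 and 483624 normalised reads in C3+14 and 0 in both mCherry libraries. It was at least 202913-fold higher, its floor being 3 reads per library. Zscan4d had 190923 and 210381 against 0 and 0, at least 88142-fold higher. Together the 6 genes took up 4.98% and 5.39% of all C3+14 reads and 0 reads in mCherry. Between 49% and 95% of their 50-base stretches also occur in other genes, so the members cannot be read separately. The list's median log2 fold change was 17.87, and 16.69 with genes at 0 reads set to their bound, against 0.23 and 0.20 over all genes.

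Usp17-like genes, which code for deubiquitinases and lie in clusters on chromosome 7, were higher at 5 of 5 members. Usp17la (chromosome 7, 104857009 to 104862667) had 46530 and 50209 normalised reads against 0 and 0, at least 21248-fold higher, with 19% of its sequence shared. Usp17le had 59919 and 62243 against 0 and 0. The list median was 15.56 (14.61 with bounds).

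All 7 genes of the Tdpoz and Tcstv list rose. Tdpoz genes code for TRAF- and BTB-domain proteins of the 2-cell embryo, and Tcstv genes for small 2-cell proteins that act on telomeres. Tcstv1 (chromosome 13, 119893388 to 119894785) went from 0 and 0 to 1243 and 1344 normalised reads, at least 568-fold. Tcstv3 reached 21246 and 20671, at least 9207-fold above its 2 empty control libraries. Tdpoz3 had 8076 and 8895 against 0 and 0. Only Tcstv1 shares less than 20% of its sequence. The Obox genes, homeobox genes of the oocyte and early embryo, were higher at 5 of 5 members and reached lower levels. Obox6 had 380 and 322 normalised reads in C3+14 and 17.8 and 17.2 in mCherry, a 20.1-fold difference (log2 fold change 4.25, SE 0.30, adjusted p 6.91e-08). Obox5 had 31.8 and 27.5 against 0 and 0, at least 13-fold higher.

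Pramel and Pramef genes, leucine-rich repeat genes expressed in germ cells and early embryos, did not move together. Of 12 members tested 10 were higher and 1 was lower. Pramel6 (chromosome 2, 87506565 to 87510872), whose product promotes ground-state hypomethylation, had 4473 and 4376 normalised reads against 19.1 and 14.6, a 262-fold rise with none of its sampled sequence shared. Pramel7, its neighbour in function, had 868 and 719 against 29.7 and 29.2. Pramef25 had 30076 and 30122 against 0 and 0, at least 13222-fold higher, with 63% of its sequence shared. Pramef12, a germline factor, went the other way: 645 and 573 normalised reads in C3+14 against 2089 and 2052 in mCherry, a fall by 1.77 (SE 0.22, adjusted p 1.51e-05). Pramef8 rose 2.43-fold, a call lost under equal total reads (log2 fold change 0.49).

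Other markers of the 2-cell stage lie outside these large families. Of 12, 10 were higher and 0 lower, with a median of 8.0 (7.94 with bounds). Without the 3 that share over 20% of their sequence (Arg2, Duxbl1 and Sp110), 7 of 9 were higher, with a median of 5.78. Zfp352 (chromosome 4, 90218820 to 90225702), a zinc finger gene and a standard reporter of the state, had 28261 and 30663 normalised reads against 0 and 0, at least 12942-fold higher. Tmem92, a membrane protein gene, had 22089 and 21125 against 0 and 0.858, the latter being a single read, which gives a ratio of 57910 with a 95% counting interval from 10390 to 2288000. Ubtfl1, a testis and embryo paralog of the nucleolar factor UBTF, rose 2130-fold, from 3.30 and 2.57 to 5856 and 6655. Spz1, a bHLH-zip gene of the testis, went from 0 and 0 to 715 and 734. Arg2, the mitochondrial arginase, had 886 and 845 against 1.32 and 1.72. Usp26, an X-linked deubiquitinase gene, had 117 and 172 against 2.64 and 0.858. In none of these genes did the libraries of the groups overlap. Of the 6391 genes called higher, 6389 had no overlap.

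Genes already active in the control cells rose as well. Nelfa (chromosome 5, 33897916 to 33936413), a subunit of the negative elongation factor known as an inducer of Dux in stem cells, had 33289 and 32025 normalised reads in C3+14 and 1355 and 1323 in mCherry. That is 24.4-fold (log2 fold change 4.61, SE 0.16, adjusted p 4.7e-11) with 1% of its sequence shared. Ddit4l, an inhibitor of mTOR signalling, rose 3.59-fold from 463 and 408. Zfp296 (1384 and 1341 against 1078 and 1109) and Patl2 (77.1 and 71.3 against 103 and 127) were not called. Their log2 fold changes were 0.32 and -0.62, and that of Zfp296 turned to -0.47 under equal total reads and was called after the base-composition correction (1.24). The paralog Duxbl1 had 2255 and 2224 normalised reads against 10.6 and 11.2, 206-fold, with 96% of its sequence shared.

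Dppa2 and Dppa4 code for partner proteins that bind the Dux locus and activate it, and Dppa3 codes for a maternal factor that protects against demethylation. Dppa2 had 15362 and 15050 normalised reads against 2768 and 2756 (log2 fold change 2.46, SE 0.17, adjusted p 6.52e-08). Dppa3 had 707 and 752 against 79.8 and 95.2 (3.05, SE 0.81, adjusted p 0.0051). Dppa4 was not called. It had 2057 and 1986 against 1573 and 1552, with a log2 fold change of 0.37 (SE 0.18, adjusted p 0.0795) that became -0.42 under equal total reads. The libraries of the groups did not overlap at any of the 3 genes, the uncalled Dppa4 included. Dppa2 and Dppa4 share over 20% of their sequence with other genes, and Dppa3 does not.

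**Figure D3:**
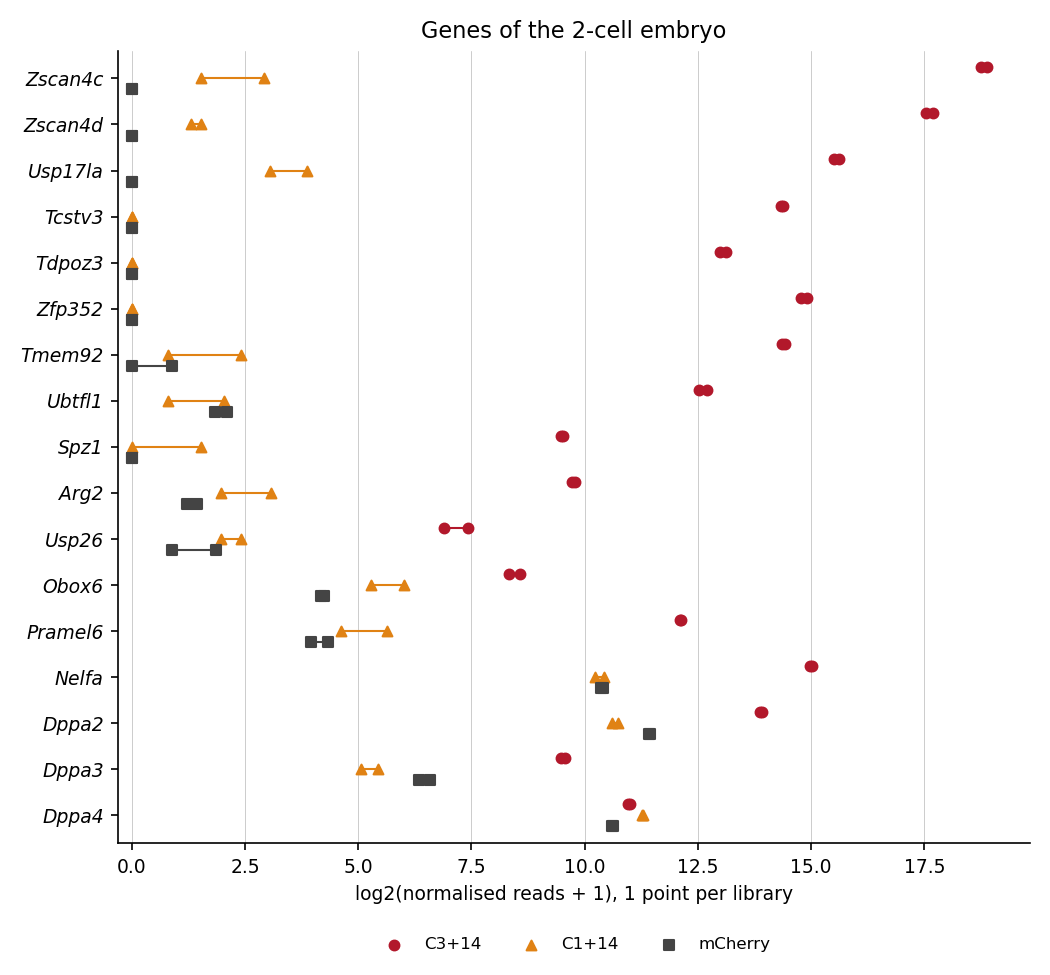
Each point is 1 library at log2(normalised reads + 1) on the x axis, for 17 genes of the 2-cell embryo on the y axis, with C3+14 as red circles, C1+14 as orange triangles and mCherry as dark squares, and a line joining the 2 replicates. The C3+14 pairs lie to the right of both other groups in every row but that of Dppa4, where C1+14 is highest, and at Dppa2 and Dppa3 C1+14 lies to the left of mCherry.

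Another derivative in the same table, C1+14, has by its name C1 in the place of C3. It was induced in the same way, and it was fitted in the same model, where 44.6% of genes were called between the derivatives, 25.9% higher and 18.7% lower in C3+14. The C3+14 minus C1+14 comparison was added after the data were seen. Nelfa had 1200 and 1370 normalised reads in C1+14, so the C3+14 libraries were higher by 4.67 (SE 0.16, adjusted p 4.68e-11). For Zfp352 both C1+14 libraries had 0 reads. Ubtfl1 had 0.731 and 3.10 (difference 11.19, SE 0.37, adjusted p 3.11e-11) and Pramel6 49.0 and 23.6 (6.98, SE 0.63, adjusted p 8.05e-07). Dppa2 had 1706 and 1554, below mCherry, and differed by 3.22 (SE 0.17, adjusted p 4.8e-09). At Dppa4 the derivatives were not called different (-0.29, adjusted p 0.165). On the pluripotency side Esrrb (9776 and 8661 in C1+14) and Stat3 (2493 and 2490) were lower in C3+14 than in C1+14 by 2.07 and 2.12, whereas Prdm14 (382 and 329) and Foxd3 (105 and 76.9) were at levels in C1+14 that did not pass the test against C3+14 (differences of -0.03 and -0.09, adjusted p 0.943 and 0.826). The C1+14 and C3+14 comparisons with mCherry use the same control libraries.

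Beyond the lists, the protein-coding genes with the largest rises and under 20% of sequence shared were Usp17la, B020031M17Rik, Zfp352, Tmem92, Gm5039, Gm4778, BC147527, Trim75, Gm4858 and Dcc. B020031M17Rik (chromosome 13, 119949357 to 119950806) had 43677 and 42499 normalised reads against 0 and 0, at least 18928-fold higher. BC147527, also on chromosome 13 (120300392 to 120308779), had 6910 and 6508 against 0 and 0. Gm5039 had 37664 and 38790 against 3.30 and 1.72. Trim75, a tripartite-motif gene with none of its sampled sequence shared, had 5517 and 5575 against 0.660 and 0, with a single read in the controls. Dcc, the netrin receptor of growing axons, had 3927 and 4125 normalised reads against 0 and 0, at least 1769-fold higher. These 10 genes kept their call under each scaling, filter, test and left-out library tried.

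Pluripotency genes fell in part. Of 12 naive pluripotency factors, 9 were called lower and 0 higher, with a median of -1.70, and the same count of 9 was found under each of 18 other settings. Nanog had 7097 and 6799 normalised reads in C3+14 against 16214 and 15907 in mCherry. Esrrb, an orphan nuclear receptor that sustains naive self-renewal, had 2232 and 2153 against 13469 and 13881, a 6.24-fold fall (-2.64, SE 0.25, adjusted p 1.06e-06). Klf2, the Krüppel-like factor that marks the naive state, fell 8.81-fold, from 4015 and 4214 to 456 and 478. Prdm14, which represses DNA methyltransferases and FGF signalling, fell from 2172 and 2306 to 347 and 345. Tfcp2l1 (5299 and 5908 against 18723 and 19386), Stat3 (550 and 598 against 2571 and 2617) and Zfp42 (4685 and 4736 against 11316 and 11174) fell too. The other Krüppel-like factors did not pass. Klf4 had 2771 and 2813 against 3203 and 3108 (-0.18, adjusted p 0.688, and 0.36 after the base-composition correction), and Klf5 had 8704 and 9234 against 5726 and 5994 (0.61, adjusted p 0.00954, short of the fold limit, and -0.17 under equal total reads).

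Among 11 core pluripotency genes 4 were lower and 0 higher, with a median of -0.54, and 6 were lower under equal total reads. Pou5f1, which codes for OCT4, had 14117 and 12735 normalised reads in C3+14 and 12414 and 12697 in mCherry. The log2 fold change of 0.10 (SE 0.15, adjusted p 0.606) turned to -0.69 under equal total reads and after quantile normalization, and was 1.02, past the fold limit, after the base-composition correction. Its partner Sox2 fell 4.43-fold, from 4962 and 4867 to 1183 and 1037. Fgf4, the growth factor that SOX2 and OCT4 switch on, had 112 and 84.2 normalised reads against 3858 and 3911, a 39.5-fold fall (-5.31, SE 0.59, adjusted p 4.66e-06). Lin28a, an RNA-binding inhibitor of let-7 processing, fell 39.2-fold, from 2976 and 2784 to 78.7 and 68.0. Foxd3 fell 6.77-fold. Trim71, a let-7 target and partner of the LIN28 pathway, had the largest fall among named genes with a mean of at least 2000 over the 4 libraries, from 4596 and 4209 to 268 and 236 (-4.12, SE 0.14, adjusted p 4.67e-11).

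**Figure D4:**
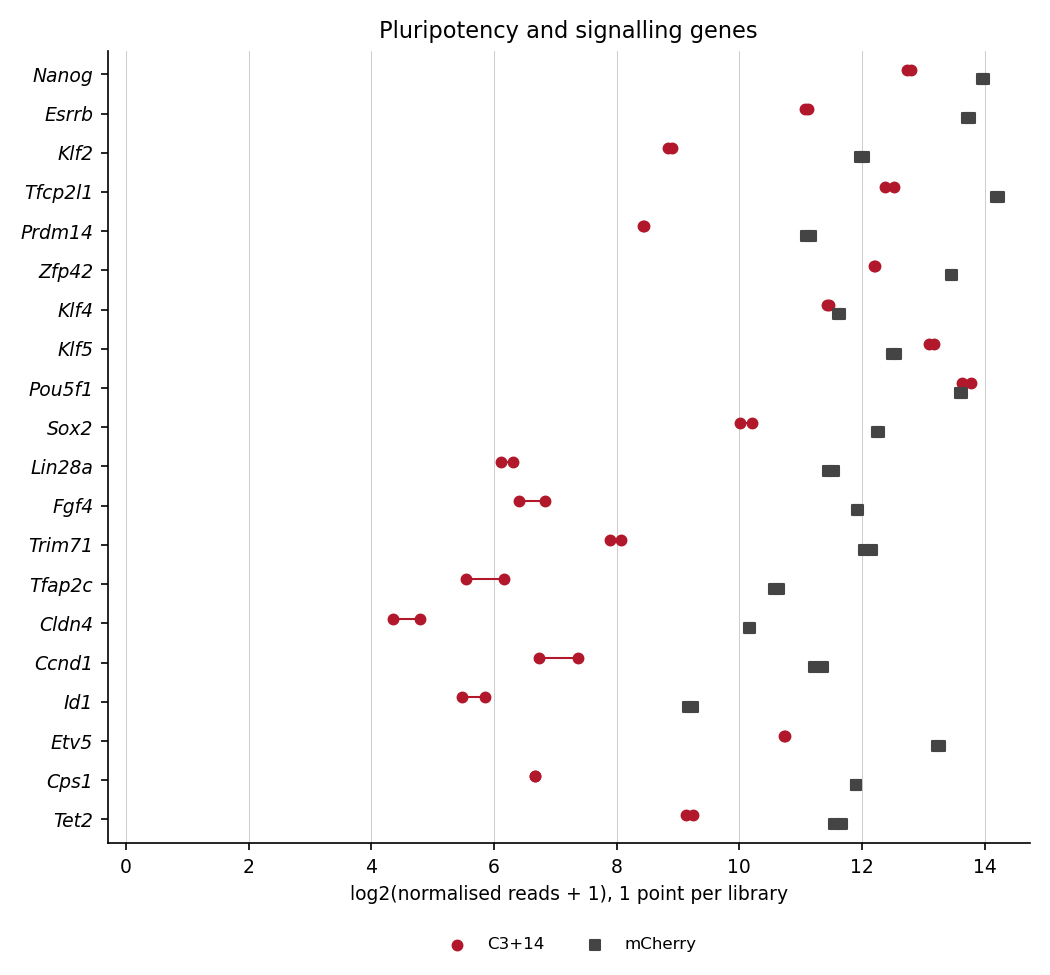
Each point is 1 library at log2(normalised reads + 1) on the x axis for 20 pluripotency, signalling and metabolic genes on the y axis, with C3+14 as red circles and mCherry as dark squares and a line joining replicates. At Pou5f1 the groups lie side by side, at Klf5 C3+14 is to the right, and at Lin28a, Fgf4, Cldn4 and Cps1 the C3+14 pair lies more than 5 units to the left.

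Genes of neighbouring lineages were mixed. Of 11 trophectoderm genes 4 were lower and 3 higher (36.4% and 27.3%, beside 17.7% and 29.6% of all genes). Under equal total reads or after quantile normalization 5 were lower and 0 higher. With size factors of the 4 libraries, or without mCherry replicate 2, 1 was higher. Tfap2c, an AP-2 factor shared by trophoblast and naive stem cells, fell 26.9-fold, from 1514 and 1603 to 70.4 and 45.4, and Gata2 fell 16.8-fold, from 313 and 323 to 20.1 and 17.8. Tead4 fell 3.05-fold, a call lost after a correction for base composition (-0.68). Of 12 primitive endoderm genes 7 were higher and 1 lower, and under equal total reads 3 were higher and 2 lower. Foxa2 had 168 and 199 normalised reads against 5.28 and 3.43 (5.12, SE 0.63, adjusted p 1.23e-05), and Sox17, an endoderm SOX factor, 181 and 146 against 6.60 and 7.72. Pdgfra, the receptor that marks this lineage, rose 7.32-fold. Epiblast priming genes fell at 5 of 10 members and rose at 1. After the base-composition correction 3 were lower and 3 higher, and under equal total reads 5 were lower and 0 higher. Nodal, Lefty1 and Lefty2, a signal and its antagonists, fell by 1.82, 2.96 and 3.22. Germline genes rose at 7 of 14 members and fell at 0, against 4 higher and 2 lower under equal total reads and 6 and 1 after quantile normalization. Tdrd1, a piRNA-pathway Tudor protein gene, had 766 and 863 normalised reads against 9.90 and 13.7, and Dazl, a germ-cell RNA-binding protein gene, had 6518 and 7293 against 1165 and 1075.

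Chromatin regulators differed by list. Of 20 repressors that hold the 2-cell state in check, 3 were lower (Rcor1, Chaf1a and E2f6, by 1.16, 1.14 and 1.06) and 0 higher. These 15% are near the 17.7% of all genes, and 11 were lower under equal total reads and 6 after quantile normalization, while 2 were higher and 4 lower after the base-composition correction. The call on Chaf1a, a subunit of the chromatin assembly factor, was lost after the base-composition correction (-0.79). Trim28 (43340 and 43644 against 28795 and 28728) and Kdm1a (10007 and 10330 against 6000 and 5507), a corepressor and a histone demethylase, were not called, and their log2 fold changes were 0.60 and 0.82. Trim28 turned to -0.19 under equal total reads and -0.60 after quantile normalization, and after the base-composition correction Trim28 and Kdm1a were called higher (1.52 and 1.02). Histone acetyltransferase and MLL complex genes fell at 8 of 15 and rose at 0. Kmt2a, a histone H3 lysine methyltransferase, fell from 1418 and 1506 to 318 and 322 (-2.19, SE 0.17, adjusted p 1.74e-07). After the base-composition correction 4 of the 15 were lower, and under equal total reads 12. Among 18 subunits of the SWI/SNF remodeller 4 were lower (Arid1a, Arid2, Smarcd1 and Smarcd3) and 0 higher. The 22.2% lower are near the 17.7% of all genes and the 20.4% of protein-coding genes. Under equal total reads 10 were lower, and after the base-composition correction 3 were lower and 1 higher.

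Of 9 DNA methylation genes 5 were lower and 0 higher, and 3 and 2 after the base-composition correction. The 3 Tet genes, whose products oxidise methylcytosine, all fell. Tet2 had 560 and 604 normalised reads against 2998 and 3285 (-2.43, SE 0.23, adjusted p 1.07e-06), Tet1 3215 and 3247 against 7290 and 7844, and Tet3 43.6 and 47.0 against 156 and 164. Dnmt3a and Dnmt3b, the de novo methyltransferases, fell by 1.13 and 1.14, and both calls were lost after the base-composition correction (-0.93 and -0.79). Dnmt1, the maintenance enzyme, was not called, with 6863 and 6790 against 6718 and 7071.

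Signalling targets fell in the BMP and TGF-beta list and split in others. Of 10 BMP and TGF-beta targets 7 were lower and 1 higher, with a median of -2.01. Id1 and Id3, inhibitors of bHLH factors that BMP induces, went from 573 and 605 to 57.0 and 43.7 and from 405 and 365 to 26.8 and 9.72. Bambi, a decoy receptor, rose 7.10-fold, from 152 and 164 to 1054 and 1192. Of 10 ERK feedback genes 4 were lower and 3 higher (40% and 30%, beside 17.7% and 29.6% of all genes). Etv5, an ETS factor downstream of FGF, fell from 9583 and 9897 to 1692 and 1722, and Spry4, a Sprouty inhibitor, from 155 and 169 to 8.38 and 9.72, whereas the phosphatase gene Dusp4 rose from 23.8 and 12.9 to 154 and 107. Of 12 Wnt targets 3 fell and 2 rose (25% and 16.7%, beside 17.7% and 29.6% of all genes). Under equal total reads 6 fell and 1 rose. Without C3+14 replicate 1 or mCherry replicate 2, 1 rose. Sp5 and Cdx1 fell 12.4-fold and 14.3-fold, and Lgr5, a stem cell receptor, rose from 0.660 and 3.43 to 63.7 and 71.3. Immediate early genes divided as well, 4 higher and 4 lower of 9, or 44.4% each. Egr1, Fos and Jun were higher (Egr1 146 and 186 against 5.94 and 0), and Junb, Jund, Ier2 and Nr4a1 lower (Nr4a1 112 and 95.6 against 985 and 959).

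Among 24 cyclins and cell-cycle kinases 8 were lower and 2 higher (33.3% and 8.33%, beside 17.7% and 29.6% of all genes). Under equal total reads 12 were lower and 0 higher, and 0 were higher after quantile normalization and without C3+14 replicate 2. Ccnd1, the D-type cyclin, had 106 and 164 normalised reads against 2377 and 2623 (-4.24, SE 0.56, adjusted p 2.19e-05), and Ccne1 fell 3.89-fold. Of 11 genes of the Myc network 6 were lower and 0 higher, with a median of -1.68, and 10 were lower under equal total reads. Mnt, a repressor that pairs with MAX, fell from 1003 and 1114 to 67.0 and 84.2, Mycn from 2158 and 2290 to 457 and 481, and Max from 1861 and 1952 to 489 and 510. In the p53 list 3 of 18 were higher and 3 lower, or 16.7% each, not above the 29.6% and 17.7% of all genes. Under equal total reads 2 were higher and 9 lower. The BH3-only genes parted: Bbc3 (PUMA) fell from 533 and 532 to 21.8 and 17.8, and Pmaip1 (NOXA) rose from 172 and 156 to 3071 and 3051. The arrest gene Cdkn1a had 1788 and 1770 against 1989 and 1984 and was not called, nor was Mdm2.

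Stress genes did not form 1 pattern either. In the integrated stress response 6 of 17 were higher and 3 lower (35.3% and 17.6%, near the 29.6% and 17.7% of all genes). Among protein-coding genes these shares were 22.8% and 20.4%. Under equal total reads 3 were higher and 5 lower, and the median went from 0.63 to -0.16. Asns, asparagine synthetase, rose from 11455 and 11132 to 50541 and 48978, and Phgdh, the first enzyme of serine synthesis, 5.39-fold. Atf4, the transcription factor at the head of the pathway, fell from 5781 and 5673 to 1763 and 1808, and Chac1, one of its targets, from 153 and 162 to 13.4 and 14.6. Of 12 heat shock genes Hspa1a and Hspa1b were called, both higher (16.7%, below the 29.6% of all genes). They had 65% and 64% shared sequence, and the call of Hspa1b was lost under equal total reads (0.95). After quantile normalization 4 of the 12 were lower.

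RNA surveillance and splicing genes were called lower in part. Of 14 nonsense-mediated decay factors 8 were lower and 0 higher, with a median of -1.11. Smg5, which helps recruit decay enzymes to the helicase UPF1, went from 3469 and 3813 to 543 and 554 (-2.73, SE 0.15, adjusted p 4.54e-09). Upf2 fell 4.98-fold and Smg9 7.15-fold. Upf1 fell 3.64-fold, and its call was lost after the base-composition correction (-0.93), where 6 of the 14 were lower and 1 higher. SR splicing factors were lower at 4 of 13 members (30.8%, beside 17.7% of all genes) and higher at 0. Srsf2 fell by 1.70 and Srsf3 by 1.18. Without genes of shared sequence 2 of 11 were lower, and under equal total reads and quantile normalization 10 and 7 of the 13.

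Metabolic genes changed singly. Cps1, the carbamoyl phosphate synthetase of the urea cycle, had 100.5 and 100.4 normalised reads against 3812 and 3813, a 38-fold fall (-5.23, SE 0.40, adjusted p 1.44e-07), and Slc7a1, an arginine transporter, fell 8.07-fold. Arg2, described above, moved the other way. Of 18 glycolysis genes 4 were higher and 2 lower (22.2% and 11.1%). The shares were 29.6% and 17.7% of all genes and 22.8% and 20.4% of protein-coding genes. Under equal total reads 1 of the 18 was higher and 3 lower, and after the base-composition correction 8 were higher. Aldoc, an aldolase, rose from 48.2 and 50.6 to 1687 and 1550, while Hk2, a hexokinase, and Slc2a3, a glucose transporter, fell by 1.38 and 1.21. In cholesterol synthesis 4 of 22 rose and 3 fell (18.2% and 13.6%, below the 29.6% and 17.7% of all genes). Under equal total reads 1 rose and 13 fell. Dhcr7, a reductase of the last steps, rose from 596 and 643 to 2493 and 2353.

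Large gene families of the translation machinery and chromatin were called higher on the deposited scaling, and many members share sequence. Canonical histone genes, whose transcripts normally end without a poly(A) tail, were higher at 56 of 58 tested members and lower at 0, with a median of 4.56, and 46 of the 58 share over 20% of their sequence. Among the 12 others 11 were higher. Hist1h1b had 25.1 and 40.5 normalised reads against 5.28 and 4.29, and Hist1h1c 253 and 266 against 64.0 and 90.9, a call lost under equal total reads (0.97). Ribosomal protein genes were higher at 67 of 81 and lower at 0, with a median of 1.30. Without those sharing over 20% of their sequence 21 of 25 were higher. But under equal total reads 1 of the 81 ribosomal protein genes was higher and 2 were lower. Their share of all reads was 11.4% and 10.3% in C3+14 and 7.73% and 7.48% in mCherry. The mitochondrially encoded protein genes were higher at 11 of 13, and at 3 and 0 of 13 under equal total reads and quantile normalization. After the base-composition correction 4 of the 13 were higher. The medians were 0.51 for ribosomal protein genes and 0.70 for mitochondrial genes under equal total reads, and 0.10 and 0 after quantile normalization. Histone calls moved less, with 55 and 54 higher under these scalings.

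**Figure D5:**
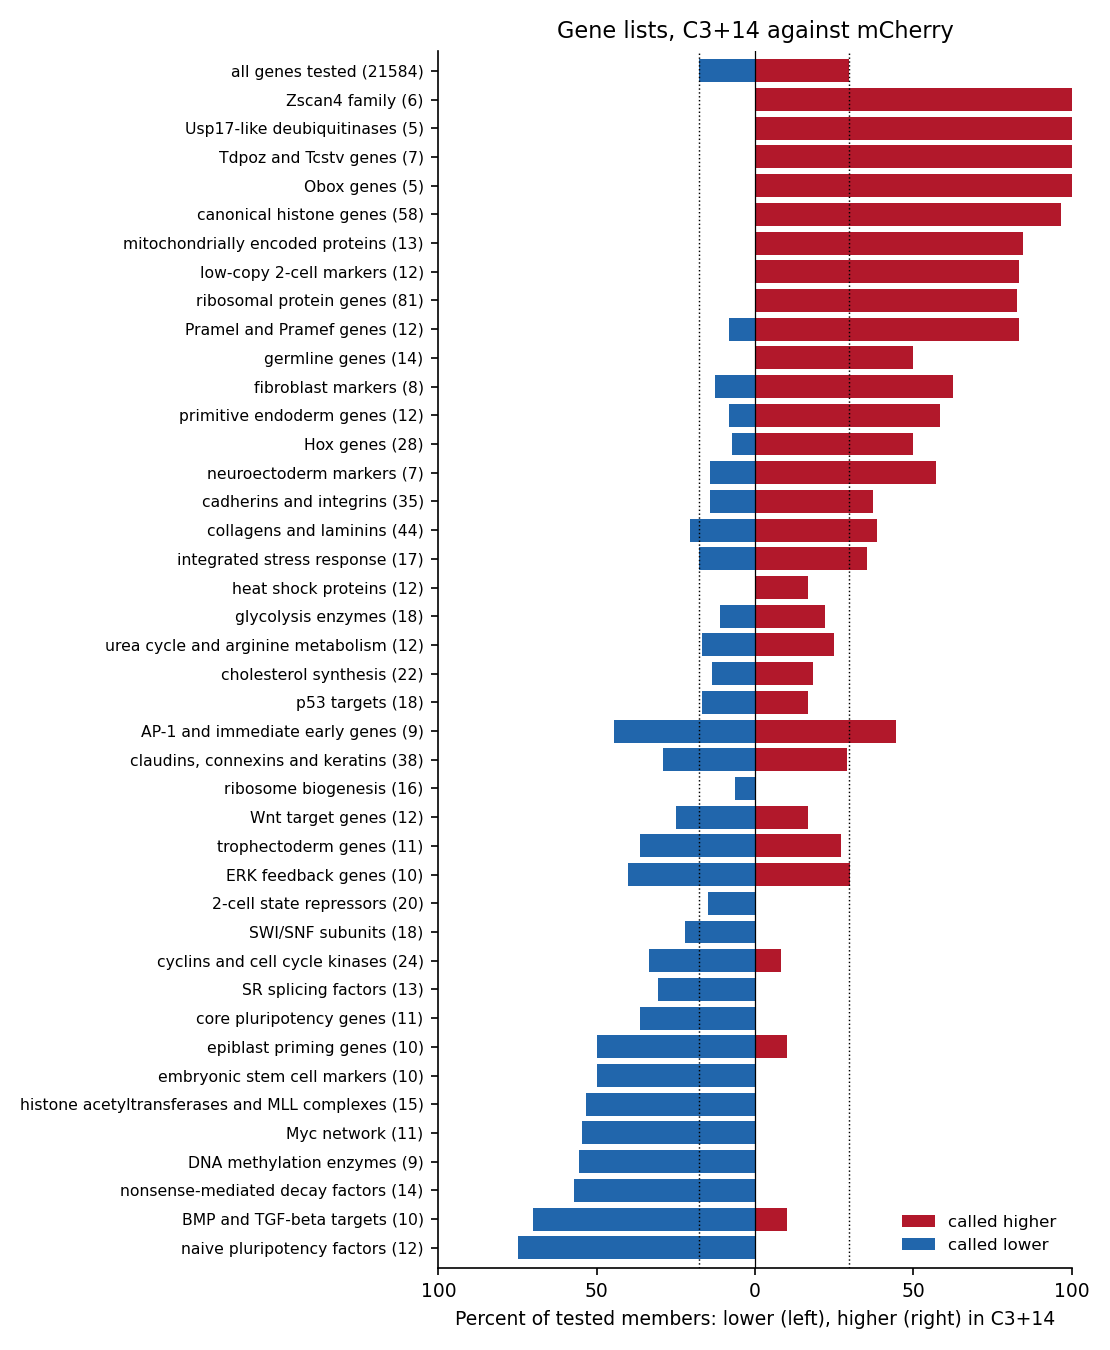
For each gene list (tested members in brackets), bars give the percent of tested members called higher (red, right) or lower (blue, left) in C3+14, and dotted lines repeat the values of all tested genes, 29.6% and 17.7%. Zscan4, Usp17-like, Tdpoz and Tcstv, and Obox genes reach 100% higher, and naive pluripotency factors and BMP and TGF-beta targets reach 75% and 70% lower.

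Ahnak2, Syde1, Ccdc8, Nkx1-2, Hs3st2, Osm, Serpina3i, Inhbb, Tnfrsf25 and Gm11627 had the largest falls among protein-coding genes with under 20% of sequence shared, a mean of at least 50 in mCherry and no overlap between the groups. Ahnak2 (chromosome 12, 112772194 to 112802657), a giant scaffold protein gene, had 0 and 3.24 normalised reads against 287 and 328, a ratio of 185 with a 95% counting interval from 51.0 to 1530. Hs3st2, a heparan sulphate sulphotransferase, had 0 reads in C3+14 and 91.1 and 96.1 normalised reads in mCherry, at least 18.9-fold lower. It was at 0 reads in both C1+14 libraries as well. Osm, a cytokine of the LIF family, fell 88.6-fold, from 366 and 362 to 3.35 and 4.86, and Inhbb, an activin subunit, 70.1-fold, from 486 and 548 to 5.03 and 9.72. In C1+14 Inhbb had 46.05 and 40.31, and Tnfrsf25 4.39 and 5.58 (59.4 and 65.2 in mCherry). Ahnak2 had 1246 and 693 in C1+14, above mCherry. Of the genes with the largest falls, all but Hs3st2 were also lower in C3+14 than in C1+14 by the same limits. The junction gene Cldn4 had 26.8 and 19.4 normalised reads against 1140 and 1156, a 49.6-fold fall, and the connexin gene Gjb5 fell 30.7-fold. Abundant genes with large falls beside Trim71 were Mllt6 (3721 and 4190 to 233 and 254), Cbx7, a Polycomb reader (3835 and 4239 to 410 and 452), and Klf2, Myadm, Smg5 and Ctdsp2. In all of these the libraries of the groups did not overlap. The rule for the largest falls required this, and it held at all 3814 genes called lower.

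Base composition moved with the result. Across 21495 genes the log2 fold change correlated with the GC content of the transcript with Spearman's rho of -0.267. For the difference between replicates 1 and 2, rho was 0.208 in C3+14 and -0.148 in mCherry. All are across genes, which are not independent. In the fifth of genes with the lowest GC content 39.1% were higher and 8.23% lower, and in the fifth with the highest 17.1% and 32.1%. With the correction, 6789 genes were called higher and 3306 lower. Genes of the lists named above that changed by 4 or more on the log2 scale kept their call, and the part of GC content in the result was not tested.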

How the data were processed

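RNA-seq values of 55487 genes in 14 libraries (7 groups of 2) were used. The deposited signal values are read counts divided by 1 size factor per library, as the values themselves show: all 371750 values above 0 were whole reads within 0.01 of a read (100%). Per the submitters' processing notes, Trim Galore 0.5.0, FastQC, DESeq2 and the mm10 build were used by the authors. The aligner, the counter and how multiply matching reads were handled are not given in the sources used here. GENCODE M21 gave symbols for 55227 identifiers (99.5%), and of duplicate symbols the one with the highest mean was kept.

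limma was run on genes that reached 10 in 2 or more libraries, with version 3.58.1 (R 4.3.3) and log2(value + 1), as 1 model over all 14 libraries. edgeR 4.0.16 and DESeq2 1.42.0 on recovered reads were alternatives. The limma step was tested on simulated data. An exact permutation test of 2 against 2 libraries cannot go below 0.333. A fold against 0 reads is a bound from a floor of 3 reads per library, and ratios with 1 to 3 reads have exact 95% intervals; both cover counting error only. Shared sequence is the percent of 100 sampled 50-base stretches of a gene that also occur in other genes. Named genes are the 10 largest rises and falls among called protein-coding genes whose higher group averaged 50 or more, with no overlap between groups and under 20% shared sequence, the 8 largest each way with a mean of at least 2000, and members of 43 lists. Members and lists were chosen with earlier results of these data known. The GC correction, the C1+14 comparison and the promoter stretch were added after seeing the data. Libraries of the same number were not taken as pairs. Some genes that these rules name are not reported here.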

Additional observations from a re-analysis of the deposited data

How the results depend on the processing

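The counts of 6391 genes called higher and 3814 called lower, and the 62.6% of calls that were higher, were recomputed under 18 alternatives. Without genes sharing over 20% of sequence, 4143 were higher and 3367 lower. Scaling to total reads gave 7392 lower and quantile normalization 5833. The percent of calls that were higher was 60.8 with a pseudocount of 8, 64.3 with no filter, 58.9 with a filter of 50, 60.4 with TMM scaling, 60.2 with size factors of the 4 libraries, 37.4 with total reads, 42.4 after quantile normalization, 60.7 with edgeR, 55.2 without shared genes and 67.2 with the GC correction. Leaving out 1 library at a time gave 5739 to 5913 higher, 3300 to 3552 lower and 62.5% to 63.5%. edgeR called 6095 higher and 3947 lower, and DESeq2 6077 and 3524.

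Replicate numbers only name the libraries: the replicate differences of C3+14 and mCherry correlated at -0.00676, and with the replicate block 6370 genes were higher and 3802 lower (62.6% higher).

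Uncalled genes that changed sign, in log2 fold change, were Zfp296 (-0.47), Dppa4 (-0.42), Klf5 (-0.17), Pou5f1 (-0.69) and Trim28 (-0.19) with total reads, Pou5f1 (-0.69) and Trim28 (-0.60) after quantile normalization, Klf4 (0.36), Dnmt1 (0.53) and Cdkn1a (0.38) with the GC correction, Dnmt1 without mCherry replicate 2 and Mdm2 without C3+14 replicate 1; the cause was not tested. Leaving out 1 library at a time gave -0.051 to 0.023 for Dnmt1 and -0.158 to 0.024 for Mdm2. With 2 libraries a group, a lone library left in an arm is assumed to vary like the others, and at low reads a difference may not be detectable.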

Other observations

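Hox genes, the homeobox genes that pattern the body axis, were higher at 14 of 28 tested members and lower at 2, with a median of 1.64. These are 50% and 7.14%, against 29.6% and 17.7% of all genes. Under equal total reads 12 were higher and 3 lower, and after quantile normalization 12 and 5. Hoxa9 had 174 and 196 normalised reads in C3+14 against 3.96 and 1.72 in mCherry (log2 fold change 5.66, SE 0.66, adjusted p 7.46e-06, limma), and Hoxd11 159 and 126 against 0.660 and 2.57. Cadherin and integrin genes were higher at 13 of 35 (37.1%) and lower at 5 (14.3%). The shares were 29.6% and 17.7% of all genes and 22.8% and 20.4% of protein-coding genes. Under equal total reads 11 of the 35 were higher and 14 lower. Cdh20, a type II cadherin, had 642 and 651 against 5.28 and 0, and Cdh5, the endothelial cadherin, 161 and 155 against 6.60 and 7.72. Among 44 collagens and laminins 17 were higher (38.6%) and 9 lower (20.5%), beside the same shares of all and of protein-coding genes. The counts were 9 and 13 under equal total reads and 11 and 12 after quantile normalization. Without mCherry replicate 2, 13 were higher and 5 lower. Col6a1 had 235 and 194 against 3.30 and 4.29. Among claudins, connexins and keratins 11 of 38 were higher and 11 lower, or 28.95% each, beside 29.6% and 17.7% of all genes. After quantile normalization 5 were higher and 15 lower. Gja1, the connexin of many stem and epithelial cells, fell from 754 and 813 to 40.2 and 47.0.

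Calls were unevenly spread over chromosomes and gene types. On the X chromosome 42.0% of 935 tested genes were higher and 8.45% lower, and 44.1% were higher after the GC correction, whereas on chromosome 11 the values were 21.2% higher and 23.4% lower. Of 2563 processed pseudogenes 1210 were higher (47.2%) and 96 lower (3.75%), with 1864 sharing over 20% of their sequence. Of 891 lincRNA genes 427 were higher (47.9%) and 159 lower (17.85%). Over all genes these shares were 29.6% and 17.7%.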
